A study of Mus musculus with 6 samples.

Results

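The 10 genes described here are the BCL2 family survival and death genes Bcl2, Bcl2l1, Mcl1, Bax, Bak1, Bcl2l11, Bbc3, Pmaip1, Bid and Bad, chosen by their symbols among the 41388 genes of the deposited count table. They were measured in primary fibro-adipogenic progenitors, mesenchymal cells in skeletal muscle able to turn into fibroblasts or fat cells, from male wild-type mice. In the 3 PGE2 libraries the cultured cells had received 500 nM prostaglandin E2 (PGE2) once a day for 2 days, and in the 3 vehicle libraries they had received vehicle on the same schedule. All cells grew in medium with 10% serum and 2.5 ng/mL human FGF, which both groups share. Polyadenylated RNA was read as 100 bp pairs. Nothing in the labels ties the numbered libraries to separate mice or cultures, and the p-values below therefore reflect only how far these libraries vary, possibly for technical reasons.

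BCL2 family proteins decide whether the outer membrane of the mitochondrion stays intact. The survival proteins BCL2, BCL-XL (from Bcl2l1) and MCL1 hold the effectors BAX and BAK in check, and the BH3-only proteins BIM (from Bcl2l11), PUMA (from Bbc3), NOXA (from Pmaip1), BID and BAD relieve that restraint. Once BAX or BAK open the membrane, cytochrome c leaves the mitochondrion and starts the caspase cascade. PGE2 acts through receptors that include couplers to cyclic AMP, and kinases such as the cyclic AMP-dependent kinase can phosphorylate BAD and thereby keep it from binding BCL-XL. Such changes in a protein, and the splicing that turns Bcl2l1 or Mcl1 into survival or death forms, are not visible in counts per gene.

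No member of the family was called higher or lower under PGE2 in the unpaired comparison. Of the 10 members 0 passed the edgeR quasi-likelihood test of 3 PGE2 against 3 vehicle libraries (Benjamini-Hochberg adjusted p under 0.05 over 15186 tested genes), where 0.342% of all tested genes passed, 0.211% as higher and 0.132% as lower. The unadjusted p was under 0.05 for 2 members, Bad and Bbc3, against 20.1% of all genes, and DESeq2 also called 0 members, with 6.14% of all tested genes called, 2.86% as higher and 3.27% as lower. The 95% intervals of the 10 fold changes, which were not adjusted for their number, lay between 0.576-fold and 1.43-fold, so each lay inside a 2-fold change in either direction. All 10 members passed the filter on low counts. The median log2 fold change was -0.07 for the members, with 3 above 0 and 7 below, and -0.001 for all tested genes.

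Library numbers 1 to 3 occur in both groups, but the labels do not state that they mark pairs. Deviations from group means correlated at 0.621, 0.169 and 0.422 between same-numbered libraries 1 to 3. PGE2 library 2 correlated better with vehicle library 3, at 0.252. A second edgeR fit carried the number as a block and is called the paired fit. All calls of the paired fit rest on this assumed pairing. It called 1 of the 10 members, Bcl2l1, which was lower under PGE2, where 14.4% of all tested genes passed, 6.91% as higher and 7.51% as lower. This 1 call among 10 members is near that background.

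**Figure D1:**
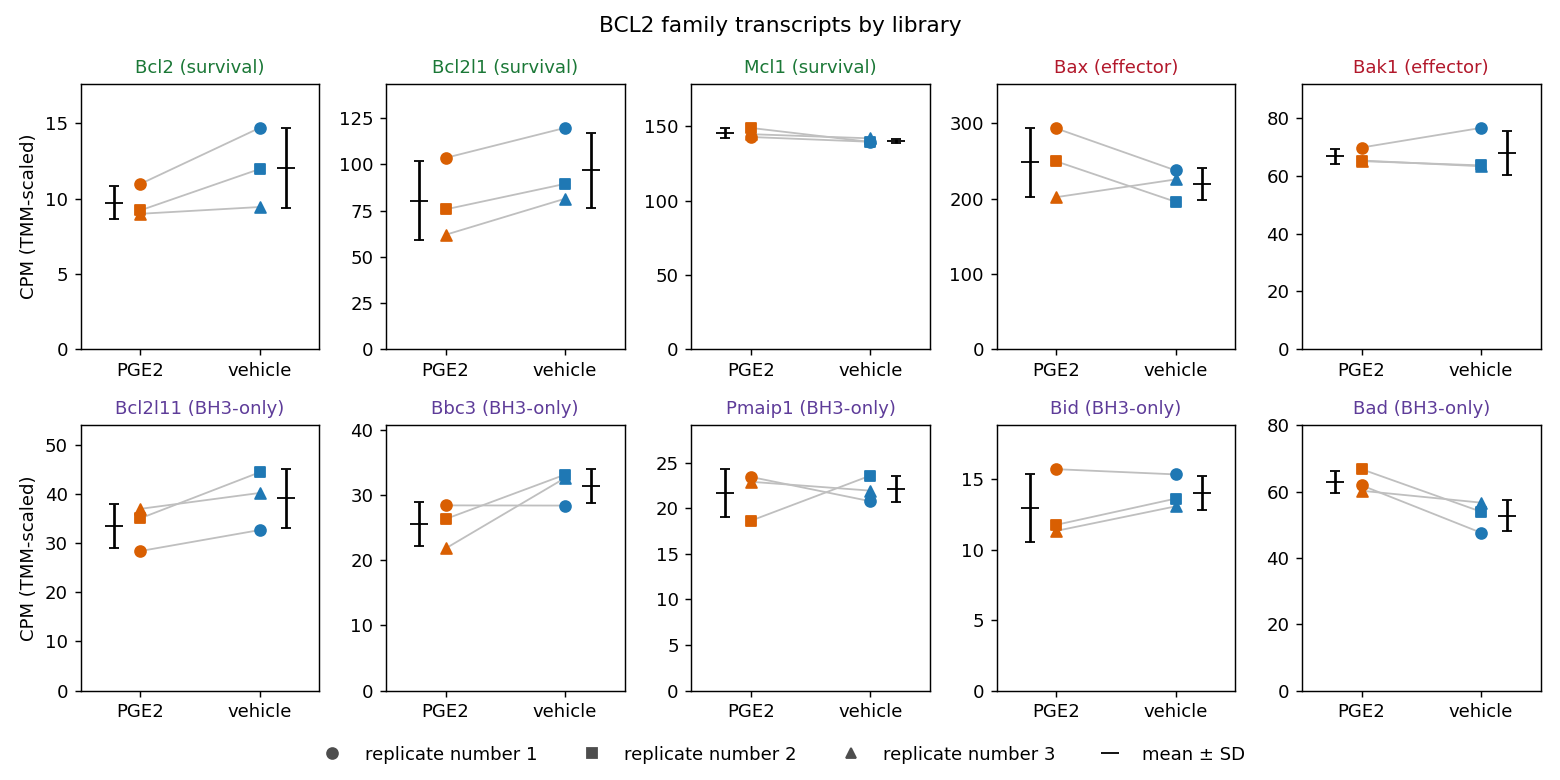
Scaled CPM (counts set relative to library size) of each member in each library, with PGE2 at the left and vehicle at the right of every panel. Symbols mark the replicate number, grey lines join equal numbers, and black bars give the mean ± SD of 3 libraries. Only Mcl1 and Bad have groups that do not overlap, and all 3 lines of Bcl2l1 and of Bcl2 lie lower at PGE2.

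Promoter sequence was searched for elements of pathways that reach these genes. Cyclic AMP acts on transcription through the element TGACGTCA, and FOXO proteins, which are known to activate Bcl2l11 and Bbc3 when growth factor signalling is low, act through the core TGTTTAC. RefSeq windows on GRCm38.p6, of 300 bases around annotated starts, were searched for 9 members (15 windows), and both strands were read. Pmaip1 was left out of this search. The full element TGACGTCA was in 0 of the 15 windows and in 1.79% of all 32851 windows. Its shorter form TGACG, which the full element contains, was in 3 windows, those of Bcl2, Mcl1 and Bbc3, and in 20.8% of all. The core TGTTTAC was in 2 windows, one each of Bcl2l11 and Bbc3, and in 3.65% of all. Both motifs were chosen with results of these data known, and a match describes letters, not binding. The stretches that follow show the matches in capitals, 5′ to 3′ on the strand of the gene. CGTCA is TGACG and GTAAACA is TGTTTAC on the other strand.
Bcl2, chr1:106714365-106714425, minus strand: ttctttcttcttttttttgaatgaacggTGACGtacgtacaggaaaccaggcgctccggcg
Mcl1, chr3:95658709-95658769, plus strand: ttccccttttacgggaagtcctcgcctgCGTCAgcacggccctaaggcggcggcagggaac
Bbc3, chr7:16309500-16309560, plus strand: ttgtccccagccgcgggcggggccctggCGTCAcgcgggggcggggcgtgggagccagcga
Bcl2l11, chr2:128125788-128125845, plus strand: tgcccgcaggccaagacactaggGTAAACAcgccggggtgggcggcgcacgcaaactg
Bbc3, chr7:16310066-16310128, plus strand: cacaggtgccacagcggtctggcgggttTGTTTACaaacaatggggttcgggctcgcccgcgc

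The 3 members with the shorter cyclic AMP form differed in sign, at log2 fold changes of -0.31 for Bcl2, 0.05 for Mcl1 and -0.30 for Bbc3. Both members with the FOXO core were below 0, Bcl2l11 at -0.22 and Bbc3 at -0.30, and neither passed the unpaired test or the paired fit. Of all 10 members 7 were below 0.

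Levels are given as CPM, the counts set relative to the scaled library size. The libraries held between 21006044 and 52730962 counts, with vehicle library 2 the shallowest, and 3 counts corresponded to between 0.0569 and 0.143 CPM. Members had between 253 counts (Bcl2 in vehicle library 2) and 13611 counts (Bax in PGE2 library 1). The markers of fibro-adipogenic progenitors were abundant, and all 10 genes were tested. Their summed levels were 8049, 13970 and 20160 CPM in PGE2 libraries 1 to 3 and 8190, 12840 and 15840 CPM in vehicle libraries 1 to 3. Library 1 was thus lowest in both groups. The paired fit called 4 of them higher and 2 lower under PGE2, where 6.91% of all tested genes were called higher and 7.51% lower. With a length offset as well it called 5 higher and 2 lower. DESeq2 called 3 higher and 0 lower, and unpaired edgeR called 0. Myogenic markers were present as well. Of 10 such genes 8 were tested, and their sum was 161.5, 24.4 and 24.1 CPM in PGE2 libraries 1 to 3 and 236.0, 76.5 and 51.8 CPM in vehicle libraries 1 to 3. The paired fit placed 6 of these lower under PGE2, the paired fit with a length offset 3, and unpaired edgeR and DESeq2 0. None of the 10 was at 0 in all libraries. The leukocyte marker Ptprc was at 0 in every library, but the leukocyte list summed to 11.53 to 12.29 CPM in PGE2 and 8.566 to 9.22 CPM in vehicle libraries, with 2 of 3 tested genes higher in the paired fit. The Schwann cell marker Sox10 was at 0 in every library, and that list summed to 4.242 to 5.098 CPM in PGE2 and 6.907 to 8.093 CPM in vehicle libraries, with 2 of 3 tested genes lower. The pericyte and smooth muscle list had 3 of 8 genes lower and the endothelial list 1 of 4. The part of these cells in the members' differences was not tested. In bulk RNA, fewer cells of a type and less RNA per cell cannot be told apart.

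Among the survival genes, Bcl2l1 was the member that passed the paired fit. It encodes BCL-XL, which binds BAX, BAK and several BH3-only proteins, and it lies on chromosome 2 at 152780668 to 152831728 of GRCm38, the assembly also called mm10. Bcl2l1 had 103.5, 75.7 and 62.0 CPM in PGE2 libraries 1 to 3, against 119.7, 89.4 and 81.4 CPM in vehicle libraries 1 to 3. The groups overlapped, since PGE2 library 1 lay above vehicle libraries 2 and 3, but each PGE2 library was below the vehicle library of its number. The differences within pairs were -0.21, -0.24 and -0.40 on the log2 scale. The unpaired log2 fold change was -0.27 ± 0.221 (edgeR adjusted p = 0.535), and the paired one was -0.28 ± 0.0724 (edgeR adjusted p = 0.0291). With 1 library left out the unpaired value lay between -0.49 (without PGE2 library 1) and -0.09 (without vehicle library 1). The paired call was lost without pair 1 (-0.32, edgeR adjusted p = 0.071) and without pair 2 (-0.30, edgeR adjusted p = 0.109).

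Bcl2l1 and the summed myogenic markers ranked the 6 libraries alike, a description noticed on seeing the values. Ordered by level, highest first, both ran vehicle library 1, PGE2 library 1, vehicle library 2, vehicle library 3, PGE2 library 2, PGE2 library 3. The part of the myogenic cells in the Bcl2l1 difference was not tested.

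Bcl2, the founding survival gene, was the least abundant member per length and lies on chromosome 1 at 106538178 to 106714274. It had 10.98, 9.228 and 9.001 CPM in PGE2 libraries 1 to 3, against 14.7, 11.97 and 9.451 CPM in vehicle libraries 1 to 3. PGE2 was lower in each pair, by 0.42 and 0.38 in the first pairs and by 0.07 in pair 3, yet the groups overlapped. The log2 fold change was -0.31 ± 0.175 (edgeR adjusted p = 0.37, paired 0.101). Without vehicle library 1 it was -0.14, and without vehicle library 3 it was -0.46.

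Mcl1, the short-lived survival protein's gene, lies on chromosome 3 at 95658788 to 95663176. It had 142.7, 148.8 and 144.6 CPM in PGE2 libraries 1 to 3, against 139.5, 139.4 and 141.8 CPM in vehicle libraries 1 to 3. These groups did not overlap, as was true of 2 members, both higher, and of 25.9% of all tested genes (13.7% higher and 12.2% lower). The step was small, at 0.05 ± 0.0621 on the log2 scale, and did not pass (edgeR adjusted p = 0.674, paired 0.636). Its 95% interval ran between -0.09 and 0.20 on the log2 scale.

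The effector Bax was the most abundant member per length and lies on chromosome 7 at 45461697 to 45466898. It had 293.1, 249.4 and 201.9 CPM in PGE2 libraries 1 to 3, against 237.4, 195.8 and 225.4 CPM in vehicle libraries 1 to 3. Pairs 1 and 2 were higher under PGE2 by 0.30 and 0.35 on the log2 scale, while pair 3 went the other way at -0.16. The log2 fold change was 0.18 ± 0.144 (edgeR adjusted p = 0.528, paired 0.291). Without PGE2 library 1 it was 0.04. Bak1, the other effector, on chromosome 17 at 27019810 to 27029009, had 69.7, 65.0 and 65.2 CPM in PGE2 libraries 1 to 3, against 76.4, 63.5 and 63.2 CPM in vehicle libraries 1 to 3. Its log2 fold change was -0.02 ± 0.0913 (edgeR adjusted p = 0.905), with a 95% interval between 0.848-fold and 1.14-fold.

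**Figure D2:**
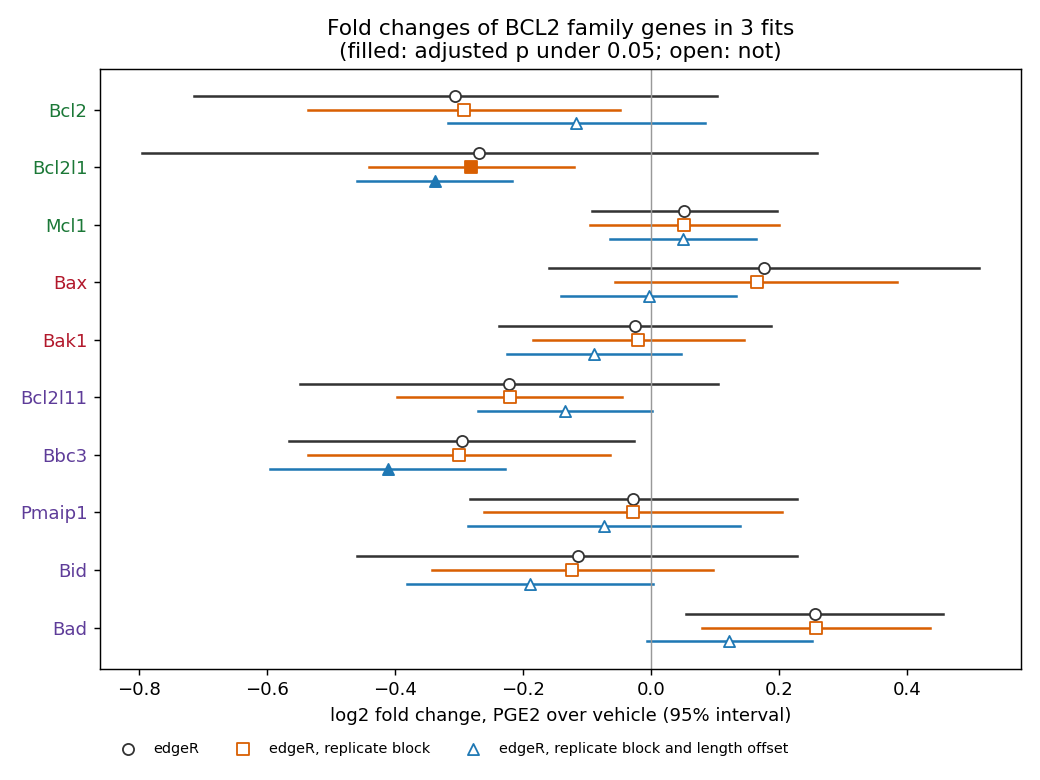
Log2 fold changes of PGE2 over vehicle for the 10 members with 95% intervals, from edgeR without a block (circles), with the replicate block (squares) and with the block and a transcript length offset (triangles). Filled symbols have an adjusted p under 0.05. Bcl2l1 is filled in both paired fits and Bbc3 in the one with the length offset, and no circle is filled.

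Bad had the smallest p of the members in the unpaired fit. It encodes a sensitizer BH3-only protein that occupies BCL-XL and BCL2, and it lies on chromosome 19 at 6941861 to 6951899. Bad had 61.9, 66.7 and 60.2 CPM in PGE2 libraries 1 to 3, against 47.6, 54.0 and 56.7 CPM in vehicle libraries 1 to 3. Every PGE2 library was above every vehicle library. The log2 fold change was 0.26 ± 0.0859 (unadjusted p = 0.019, edgeR adjusted p = 0.173), or 0.26 ± 0.0808 in the paired fit (edgeR adjusted p = 0.0578). It ranged between 0.18 and 0.31 with any 1 library left out.

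Bbc3, whose product PUMA binds all the survival proteins, lies on chromosome 7 at 16308393 to 16318205. It had 28.38, 26.29 and 21.78 CPM in PGE2 libraries 1 to 3, against 28.35, 33.08 and 32.56 CPM in vehicle libraries 1 to 3. Pair 1 showed no difference (0.002 on the log2 scale), whereas pairs 2 and 3 were lower under PGE2 by 0.33 and 0.58. PGE2 library 1 lay between vehicle library 1 and the other vehicle libraries, so the groups overlapped. The log2 fold change was -0.30 ± 0.116 (unadjusted p = 0.0356, edgeR adjusted p = 0.217, paired 0.0851). In the paired fit without pair 1 it was -0.46 and passed (edgeR adjusted p = 0.0145).

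Bcl2l11, whose product BIM also binds all the survival proteins, lies on chromosome 2 at 128126038 to 128162547. It had 28.4, 35.0 and 37.0 CPM in PGE2 libraries 1 to 3, against 32.7, 44.4 and 40.2 CPM in vehicle libraries 1 to 3. Each PGE2 library lay below the vehicle library of its number, although the groups overlapped. The log2 fold change was -0.22 ± 0.14 (edgeR adjusted p = 0.413, paired 0.0882), and lay between -0.34 (without vehicle library 1) and -0.12 (without PGE2 library 1) with 1 library left out. Bcl2l11 was one of 3 members lower in all 3 pairs, with Bcl2 and Bcl2l1, and Bad and Mcl1 were higher in all 3. Among all tested genes 25.5% were lower and 26.6% higher in every pair.

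The other BH3-only members had smaller fold changes. Pmaip1, the gene of the MCL1 partner NOXA, had 18.6 to 23.4 CPM in PGE2 libraries and 20.8 to 23.6 CPM in vehicle libraries, at -0.03 ± 0.109 (edgeR adjusted p = 0.91). Its pairs disagreed in direction, at 0.17, -0.34 and 0.06 on the log2 scale. Bid, whose product is cut by caspase-8 and links death receptors to mitochondria, had 11.34 to 15.72 CPM in PGE2 libraries and 13.08 to 15.35 CPM in vehicle libraries. Its log2 fold change was -0.12 ± 0.147 (edgeR adjusted p = 0.696). Pmaip1 lies on chromosome 18 at 66458533 to 66465565 and Bid on chromosome 6 at 120891930 to 120916853.

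Leaving out pair 3 raised the share of all tested genes that the paired fit called, from 14.4% to 33.3%. In the paired fit without pair 3, Bad (0.34) and Bax (0.32) were called higher. Bcl2 (-0.41), Bcl2l11 (-0.28) and Bcl2l1 (-0.23) were called lower. This is 5 of the 10 members, where 33.3% of all tested genes passed. Without pair 1 the paired fit called Bbc3 alone (background 9.11%), and without pair 2 it called 0 members (background 7.58%).

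Levels can be compared between genes only per length, so CPM was divided by the annotated exon length in kilobases. On that scale Bax was highest in all 6 libraries, at 157.5 ± 28.9 in PGE2 libraries and 139 ± 13.6 in vehicle libraries (SD, n = 3 each). Mcl1 came next at 42.5 ± 0.907 in PGE2 and 41.0 ± 0.397 in vehicle libraries. Bak1 (27.7 ± 1.1 in PGE2, 28.1 ± 3.14 in vehicle), Bad (24.6 ± 1.32 in PGE2, 20.6 ± 1.82 in vehicle) and Bcl2l1 (17.5 ± 4.62 in PGE2, 21.1 ± 4.4 in vehicle) followed. Over the 6 libraries the lowest Bak1 value, 26.3, was just above the highest Bad value, 26.1, while the Bad and Bcl2l1 ranges overlapped, as did those of Bcl2l1 and Bbc3. Per length of the longest transcript instead, Bad ranked 3, Bcl2l1 4 and Bak1 5. Bbc3 lay between 10.26 and 13.36 in PGE2 and between 13.35 and 15.57 in vehicle libraries, and Pmaip1 averaged 7.93 ± 0.963 in PGE2 and 8.09 ± 0.515 in vehicle libraries. Bcl2l11 (4.17 ± 0.56 in PGE2, 4.87 ± 0.741 in vehicle) and Bid (3.65 ± 0.68 in PGE2, 3.95 ± 0.334 in vehicle) overlapped, and Bcl2 was lowest at 1.06 ± 0.118 in PGE2 and 1.315 ± 0.287 in vehicle libraries.

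**Figure D3:**
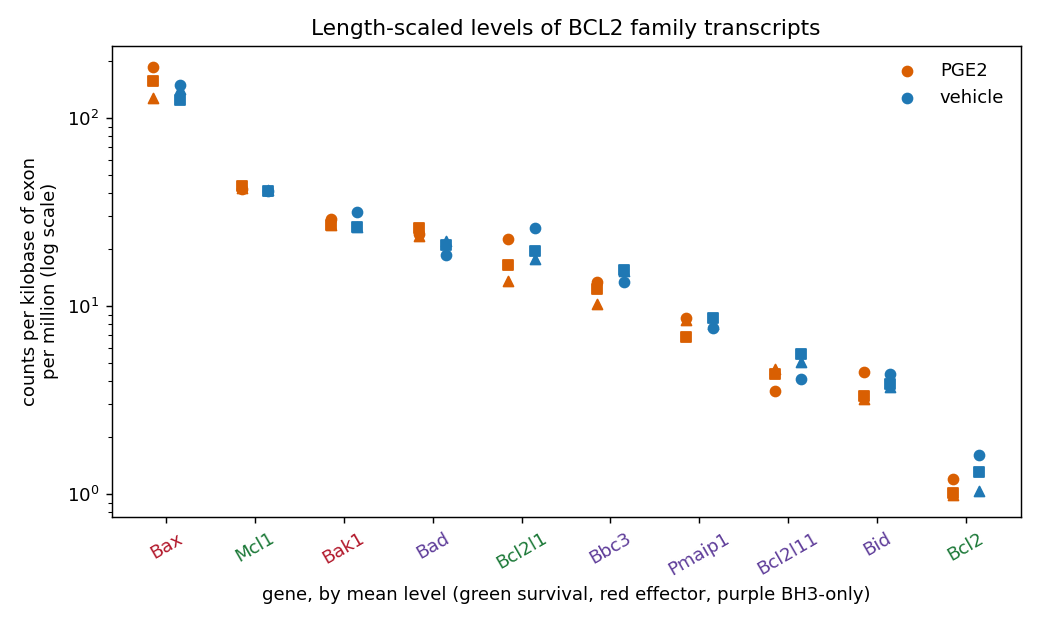
CPM per kilobase of annotated exon, on a log axis, for the members ordered by mean level, with PGE2 libraries left of vehicle libraries for each gene. Bax lies between 124 and 186 in all 6 libraries and Bcl2 between 0.983 and 1.61.

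Within each functional class the make-up was also described per annotated exon length. The percentages depend on the length used. The exon length of Bcl2l1 is 4586 bases and its longest transcript 2568, and for Bad they are 2558 and 1533. Mcl1 held 63.7%, 71.3% and 74.5% of the summed level of the 3 survival genes in PGE2 libraries 1 to 3, against 59.6%, 66.2% and 68.8% in vehicle libraries 1 to 3. This share was higher under PGE2 in each pair, while the groups overlapped. Bad held 44.7%, 49.3% and 47.1% of the summed level of the 5 BH3-only genes in PGE2 libraries 1 to 3, against 38.8%, 38.6% and 40.9% in vehicle libraries 1 to 3. The Bbc3 share was 24.7%, 23.4% and 20.5% in PGE2 libraries and 27.8%, 28.5% and 28.3% in vehicle libraries. These 2 of the 10 class shares did not overlap between groups, as a description with no test. The CPM of 25.9% of all tested genes did not overlap either. Shares within a class are tied, since a higher share of one gene lowers the others. Bax held 82.6% to 86.5% of the summed level of both effectors in PGE2 libraries and 82.5% to 84.5% in vehicle libraries.

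Ratios of raw counts within a library need no scaling between libraries. Of 9 such ratios, chosen with the fold changes known and not tested, 2 had groups that did not overlap. Among single tested genes the groups of 25.9% did not overlap, and no such share was computed for ratios. The ratios carry no correction for transcript length, which fold changes followed across all genes. The ratio of Bax to Bcl2l1 counts was 2.83, 3.3 and 3.26 in PGE2 libraries 1 to 3, against 1.98, 2.19 and 2.77 in vehicle libraries 1 to 3. The ratio of Bbc3 to Mcl1 counts was 0.199, 0.177 and 0.151 in PGE2 libraries, against 0.203, 0.237 and 0.23 in vehicle libraries. The often quoted ratio of Bax to Bcl2 was 26.7, 27.0 and 22.4 in PGE2 libraries and 16.2, 16.4 and 23.8 in vehicle libraries, and its groups overlapped through pair 3.

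Fold changes followed transcript length across all genes (Spearman's rho = -0.408 over 15098 genes, which are not independent). Bax and Bad have the shortest transcripts, at most 1100 and 1533 bases, and had the highest log2 fold changes of the 10, while Bcl2 has the longest, at 7191 bases, and had the lowest. Over the 10 members rho was -0.539, as a description. With a per-library length offset the log2 fold change of Bax was 0.003, that of Bad 0.12 and that of Bcl2 -0.12. Bbc3 and Bcl2l1 did not shrink under it. In the paired fit with the length offset Bbc3 was at -0.41 ± 0.0848 (edgeR adjusted p = 0.00564) and Bcl2l1 at -0.34 ± 0.0565 (edgeR adjusted p = 0.00107). These 2 of the 10 members passed, where 16.8% of all tested genes did, 8.82% as higher and 7.97% as lower. This count is near that background. With the length offset and no block neither passed (edgeR adjusted p = 0.16 for Bbc3 and 0.535 for Bcl2l1).

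**Figure D4:**
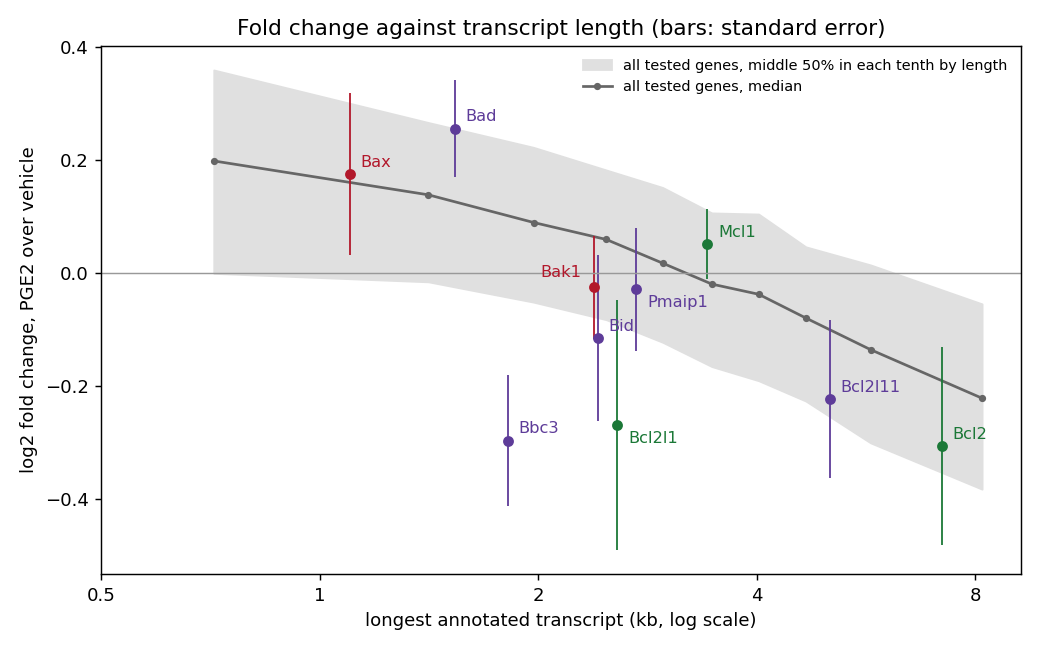
Log2 fold change of PGE2 over vehicle (± standard error) against the longest annotated transcript on a log axis for the 10 members, coloured by class (green survival, red effector, purple BH3-only). The grey line and band give the median and the middle 50% of all tested genes in 10 groups by length, whose median falls to -0.22 in the longest group. Bbc3 and Bcl2l1 lie farthest below the band, and Bad lies on its upper edge.

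Other members of the family were drawn from a list of 13 further BCL2-related genes. Of these, 6 passed the filter on low counts, and in edgeR 0 passed the unpaired test, 0 had an unadjusted p under 0.05 and DESeq2 called 0. In the paired fit 2 rose and 0 fell, where 6.91% of all tested genes were called higher and 7.51% lower. The 2 were Bcl2l2, which encodes the survival protein BCL-W (0.25 ± 0.0709, edgeR adjusted p = 0.0412), and the effector-like Bok (0.39 ± 0.114, edgeR adjusted p = 0.0455). Bcl2l2 had 61.05, 69.13 and 74.65 CPM in PGE2 libraries 1 to 3, against 50.4, 58.0 and 64.0 CPM in vehicle libraries 1 to 3, higher in each pair with overlapping groups. Unpaired, Bcl2l2 was at 0.25 ± 0.112 (edgeR adjusted p = 0.266) and Bok at 0.37 ± 0.221 (edgeR adjusted p = 0.394). Bok was at 0.24 with the block and length offset and did not pass (edgeR adjusted p = 0.122). The BH3-only gene Bmf (0.17 ± 0.279), Bcl2l12 (0.11 ± 0.133), Bcl2l13 (0.04 ± 0.0795) and Bcl2l15 (-0.48 ± 0.623) passed neither fit, although Bmf passed with the block and length offset (0.25, edgeR adjusted p = 0.0286).

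The remaining 7 were at or near the detection limit. Bcl2a1a, Bcl2a1b and Hrk had 0 counts in all libraries, Bcl2a1d and Bcl2l10 had 1 count in all, Bik had 9 and Bcl2l14 had 33 over the 6 libraries. The Bcl2a1 genes are near-identical copies, so their counts depend on how shared reads were treated.

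Upstream of the BH3-only genes, 2 of the 3 listed FOXO genes, Foxo3 and Foxo1, fell under PGE2 in the paired fit. Whether the FOXO levels bear on Bcl2l11 or Bbc3, whose windows printed above hold the FOXO core, was not tested. Foxo3 had 65.3, 60.6 and 62.8 CPM in PGE2 libraries 1 to 3, against 103.8, 111.5 and 83.4 CPM in vehicle libraries 1 to 3, with no overlap. Its log2 fold change of -0.66 ± 0.111 just missed the unpaired threshold (edgeR adjusted p = 0.0666) and passed in the paired fit (edgeR adjusted p = 0.00156), in that fit with the length offset (-0.49, edgeR adjusted p = 0.000106) and in DESeq2. Foxo1 was at -0.41 ± 0.111 (edgeR adjusted p = 0.136, paired 0.0329) and did not pass with the block and length offset (-0.19, edgeR adjusted p = 0.135). Atf4, a stress factor, rose in the paired fit (0.29, edgeR adjusted p = 0.0332). Of the 11 genes on this list 10 were tested, and 0 passed unpaired. In the paired fit 1 rose and 3 fell, the third being Mdm2, which is not itself a transcription factor. In that fit 6.91% of all tested genes were called higher and 7.51% lower.

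Downstream of the family, the lists of the apoptosome, the caspases and their inhibitors held 0 calls in the unpaired fit and a few in the paired fit, which called 14.4% of all tested genes. Of 7 tested genes of the apoptosome and of factors released from mitochondria, 1 rose (cytochrome c, Cycs) and 1 fell (Apaf1) in the paired fit. Apaf1, the scaffold that cytochrome c activates, had 61.3, 56.3 and 61.4 CPM in PGE2 libraries 1 to 3, against 71.3, 72.5 and 69.2 CPM in vehicle libraries 1 to 3, without overlap. It was at -0.25 ± 0.0668 (edgeR adjusted p = 0.129, paired 0.0475) and at -0.10 with the block and length offset (edgeR adjusted p = 0.3). The initiator Casp9 stood at -0.25 ± 0.076 (edgeR adjusted p = 0.155, paired 0.0615, with the block and length offset 0.0355) and the released protease Htra2 at 0.23 ± 0.0884 (edgeR adjusted p = 0.206, paired 0.0713).

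Of 8 tested caspase genes 1 rose in the paired fit and 0 fell. Casp6, an executioner caspase, had 43.57, 44.72 and 41.53 CPM in PGE2 libraries 1 to 3, against 34.82, 34.5 and 37.25 CPM in vehicle libraries 1 to 3, at 0.28 ± 0.0688 (edgeR adjusted p = 0.114, paired 0.0392). Casp2 stood at -0.30 and the inflammatory Casp4 at 0.22, and both passed neither fit, but Casp2 passed with the block and length offset (edgeR adjusted p = 0.0248). Among 6 tested genes of inhibitor of apoptosis proteins 2 fell in the paired fit, the caspase inhibitor Xiap (-0.30, edgeR adjusted p = 0.038) and the very large Birc6 (-0.53, edgeR adjusted p = 0.0389), and 0 rose. With the block and length offset Xiap was at -0.14 and did not pass, and Birc6 was at -0.22 (edgeR adjusted p = 0.044). Birc3 was at 0.07.

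The death receptor list had 11 of 13 genes tested. Of these 2 rose and 0 fell in the paired fit, where 6.91% of all tested genes were called higher and 7.51% lower. The 2 were the TNF receptor Tnfrsf1a (0.26, edgeR adjusted p = 0.0448) and the TWEAK receptor Tnfrsf12a (0.42, edgeR adjusted p = 0.0239). Neither passed with the block and length offset (edgeR adjusted p = 0.0692 and 0.0598). The adaptor Tradd was at 0.21 and Fasl had 0 counts in all libraries.

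Lists of partners of the members held few calls, where the paired fit called 14.4% of all tested genes. Of 9 tested genes of the BNIP3 group and mitochondrial partners 1 rose in the paired fit, Bnip3, a BH3-like mitophagy receptor that hypoxia induces. It had 204.5, 173.4 and 127.2 CPM in PGE2 libraries 1 to 3, against 117.9, 112.3 and 100.6 CPM in vehicle libraries 1 to 3. It was at 0.61 ± 0.168 (edgeR adjusted p = 0.138, paired 0.00238). Becn1 (0.19) and Bnip1 (0.25) passed neither fit, but Becn1 passed with the block and length offset (0.23, edgeR adjusted p = 0.00965). Of 6 tested genes for MCL1 and BIM turnover 1 fell, the deubiquitinase Usp9x that stabilises MCL1 (-0.48 ± 0.152 unpaired, edgeR adjusted p = 0.166, paired 0.0405). With the block and length offset Usp9x was at -0.19, on the threshold (edgeR adjusted p = 0.05). Fbxw7 (-0.31) and March5 (0.14) passed neither fit.

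Of 19 tested genes for BAD kinases, phosphatases and 14-3-3 proteins 1 rose (Pim1) and 1 fell (Ppp3ca) in the paired fit. Pim1, a kinase that phosphorylates BAD, had 34.89, 44.74 and 57.65 CPM in PGE2 libraries 1 to 3, against 24.1, 31.5 and 32.6 CPM in vehicle libraries 1 to 3, without overlap. Its log2 fold change was 0.64 ± 0.2 (edgeR adjusted p = 0.164, paired 0.00154). The 14-3-3 gene Sfn (-0.65) passed neither fit, but passed with the block and length offset (-0.77, edgeR adjusted p = 0.0178). Over all 8 apoptosis lists and the further family genes, 82 of 92 matched genes were tested. Unpaired edgeR called 0 of them and gave 24 an unadjusted p under 0.05, as it did 20.1% of all tested genes. DESeq2 called 3 higher and 5 lower, where it called 6.14% of all tested genes. In the paired fit 9 rose and 8 fell, where 14.4% of all tested genes were called. Their median log2 fold change was 0.04. Of the 14 genes whose values are given above and that passed the paired fit, 3 also passed it with any 1 pair left out, Bnip3, Foxo3 and Pim1. For all the lists together the paired fit called 6 genes without pair 1, 5 without pair 2 and 41 without pair 3, where 9.11%, 7.58% and 33.3% of all tested genes were called in the same order.

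**Figure D5:**
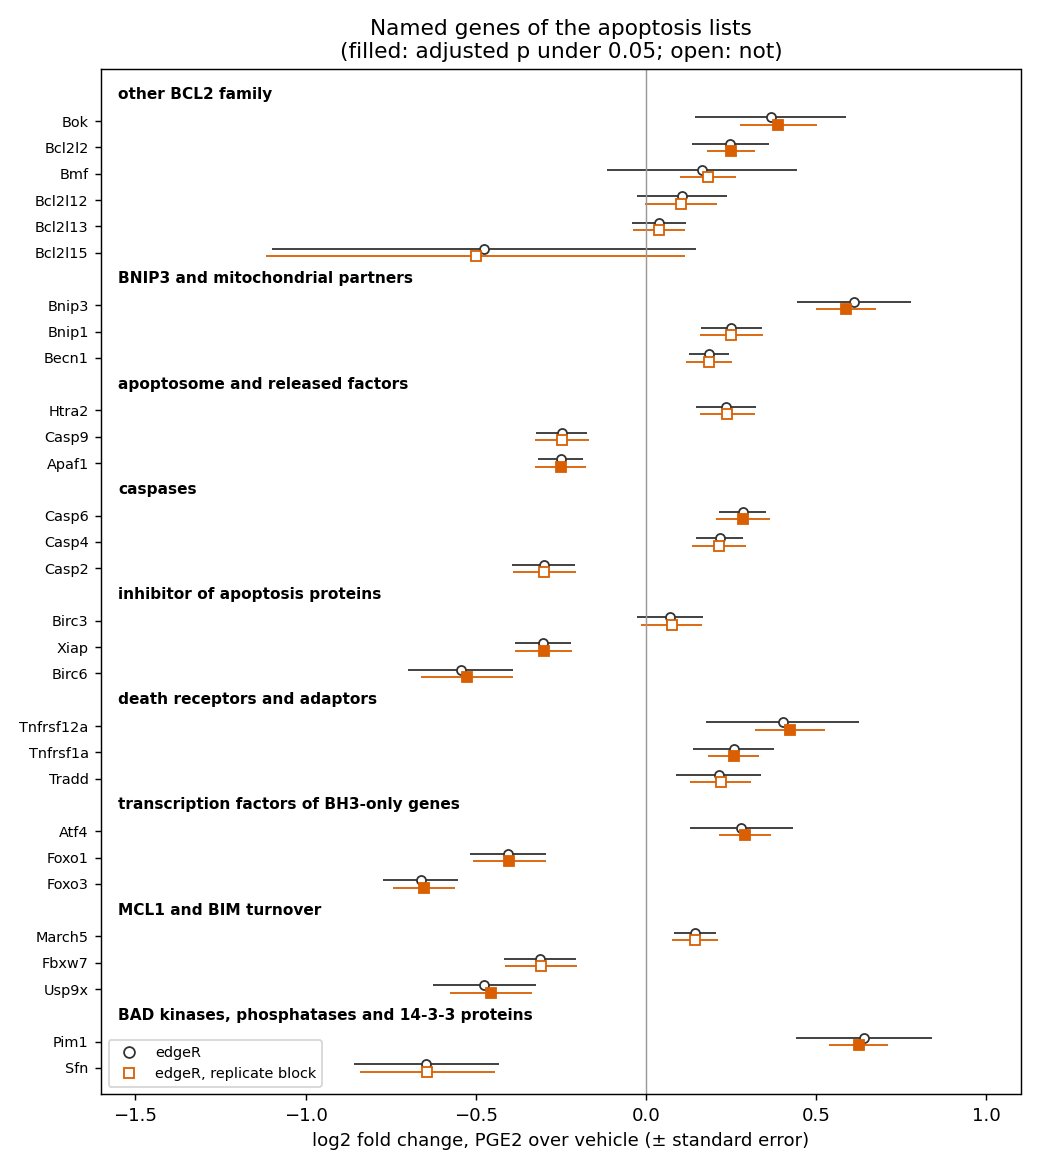
Log2 fold changes of PGE2 over vehicle (± standard error) for the named genes of the apoptosis lists, from edgeR without a block (circles) and with the replicate block (squares). Filled symbols have an adjusted p under 0.05. No circle is filled, and Foxo3, Birc6 and Usp9x lie lowest while Pim1 and Bnip3 lie highest among the filled squares.

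Exons of several members share bases with other genes, and the strand setting of the counts is not given in the sources used here. Bid shares 628 bases with Bcl2l13 on the opposite strand, Bad 524 with Gpr137, and Bcl2 558 with an antisense gene, D630008O14Rik. Bak1 overlaps 2 opposite-strand entries named Ggnbp1, by 177 and 437 bases, and Bax shares 192 bases with a same-strand gene, Gm45808. Reads in the stretch shared on the same strand cannot be assigned to one partner, and whether those shared on opposite strands were separated is not known here.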

How the data were processed

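The authors deposited whole-number counts per Ensembl gene for 6 libraries. The genome build, per the submitters' processing notes, was mm10, and which aligner, counter, strand setting and annotation release made the counts is not given in the sources used here. The 15186 genes that filterByExpr kept went into a quasi-likelihood fit (edgeR version 4.0.16, R version 4.3.3) after TMM scaling, with Benjamini-Hochberg adjustment over all of them and 0.05 as the threshold. A positive log2 fold change means higher in PGE2 libraries, ± values beside them are standard errors, and CPM values carry the same scaling. DESeq2 version 1.42.0 and limma version 3.58.1 served as alternatives.

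Same-numbered libraries were compared through the correlation of their deviations from group means (0.621, 0.169 and 0.422 for numbers 1 to 3). Each exceeded 0.1, so the numbers were taken as pairs, on evidence from the data and not the labels. For PGE2 library 2 the correlation was higher, at 0.252, with vehicle library 3.

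Gene positions, exon lengths and the longest transcripts are from GENCODE M21 on GRCm38, which held 97.3% of identifiers. The length offset is a lowess trend with span 0.3 per library. All 37 mitochondrial genes were listed at 0. The members and lists were chosen with earlier results of these data known. Named genes were all members, all tested genes of the further family list and up to 3 genes with the smallest p of each other list, and Ptprc, Sox10, Fasl, Cycs, Mdm2 and Ppp3ca were added on seeing their values. One gene that this rule names is not reported here. The edgeR fits with and without the block were first tested on simulated data with known answers. Simulated pair effects were either absent or shared by equal library numbers. The simulation therefore cannot show whether the numbers pair the real libraries. The fits with the length offset, DESeq2 and limma-voom were not tested in this way.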

Additional observations from a re-analysis of the deposited data

How the results depend on the processing

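Over all tested genes the number called was 52 without a block, 285 with no filter on low counts, 932 with DESeq2, 13 with limma-voom, 15 with the length offset and 0 at a threshold of 0.01. It was 2189 with the replicate block and 2549 with the block and length offset. With 1 library left out it was 0 without PGE2 library 2 or 3 or vehicle library 2 or 3 (edgeR, where the unadjusted p was under 0.05 for 1494, 2597, 1871 and 3697 genes), 30 without vehicle library 1 and 120 without PGE2 library 1. In the block fit it was 1372, 1160 and 5097 without pairs 1, 2 and 3.

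Of the members 0 were called without a block, also under the other scalings, DESeq2 and limma-voom and with any 1 library left out. Without PGE2 library 2 or 3 or vehicle library 2 or 3, 0 of all tested genes were called. Those fits therefore say nothing particular about members or list genes. Limma-voom called 13 of all tested genes and the fit without a block 52, so 0 of 10 members is near their background. With the replicate block 1 was called and with the block and length offset 2, and in the block fit with 1 pair left out between 0 and 5. Of the wider apoptosis lists 0 genes were called without a block, 1 with no filter, 8 with DESeq2, 17 with the replicate block and 18 with the block and length offset, and between 5 and 41 in the block fit with 1 pair left out.

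Signs of the members held in all but 6 of 170 refits. Bax was at -0.004 with the block and length offset. Bak1 ranged between -0.076 and 0.065 with 1 library left out, the highest without vehicle library 1, and was at 0.039 in the block fit without pair 1. Pmaip1 ranged between -0.089 and 0.07, with 0.07 without PGE2 library 2 and 0.016 without vehicle library 2, and was at 0.119 in the block fit without pair 2. Among the named list genes 9 of 510 refits changed sign. Bcl2l12 was at -0.019 with the length offset, -0.025 with the block as well and between -0.007 (without PGE2 library 3) and 0.189 with 1 library left out. Bcl2l13 was at -0.002 with library totals, and with 1 library left out between -0.022 (without PGE2 library 1) and 0.076, with -0.007 without vehicle library 3. Bcl2l15 was at 0.085 in the block fit without pair 3, Bmf lay between -0.08 and 0.352 and Birc3 between -0.008 and 0.113 with 1 library left out, both lowest without vehicle library 1. The cause of these changes was not tested. The order of members by level kept 7 of 10 ranks when the longest transcript replaced the exon union. With 3 libraries a group, the unpaired 95% interval excluded 0 for 2 of the 10 members, Bad and Bbc3.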
